A study of Arabidopsis thaliana with 3 samples.

Results

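Genes of 3 enzyme families of specialised metabolism were compared between the hy5-1 mutant of Arabidopsis thaliana and its wild type Landsberg erecta (Ler). They were taken by symbol, CYP, BGLU or SCPL followed by a number, in upper or lower case. The rule gave 38 of 7234 named loci: 12 cytochrome P450 genes, 11 BGLU genes, 13 SCPL genes and 2 genes that are not P450s. These last, CYP59 and CYP71, are annotated as cyclophilins, whose symbols share their letters with the P450s, and are described apart. The 36 enzyme genes are a small part of their families, since the RefSeq table of assembly TAIR10.1 holds 237 P450, 40 BGLU and 49 SCPL symbols. Every one of the 38 genes had a single probe on the array.

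RNA of hy5-1 plants (Cy5 dye) and of Ler plants (Cy3 dye) was hybridised together on 3 two-colour arrays, labelled as 3 biological replicates. Plants of both genotypes were 3 weeks old, had grown in soil at 22 °C under a 16 h light and 8 h dark cycle, and had then spent 1 day at 4 °C. Every group was therefore cold-treated, and no warm sample was analysed here. The only genotype difference given is the single mutant allele hy5-1. HY5 itself had no named feature, so the genotype was not checked by its own transcript. The labels name no organ. None of the 4 listed green leaf markers had a named feature, and ratios give no level, so the tissue was not checked either. In such bulk RNA, fewer cells of a type and less RNA per cell cannot be told apart.

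Values are log ratios of the 2 dyes. The sources used here do not give the base, so base 2 was assumed, and every fold change below rests on it. A negative value was read as lower in hy5-1 than in Ler, the likely direction because the labels list hy5-1 as the first channel, in Cy5. The titles name Ler first, and under the opposite reading every direction below turns. The dye assignment was the same throughout, so dye and genotype differences cannot be told apart. Array 2 stood apart. Its scaled median absolute deviation over all features was 0.133, against 0.208 on array 1 and 0.193 on array 3. The SD, which extreme ratios raise, was not smaller on array 2, at 0.385 against 0.377 and 0.321. Across all 7234 loci its ratios correlated with those of arrays 1 and 3 at r = 0.512 and 0.504, against r = 0.759 between arrays 1 and 3. Across the 36 enzyme genes the values were 0.267 and 0.270, against 0.800. These genes include CYP71B23, whose extreme ratios of -1.84, 0.33 and -1.24 weigh on r, and no value without it was computed. The median size of the gap between array 2 and the mean of arrays 1 and 3 was 0.17 for these genes. For all loci it was 0.22, so a typical enzyme gene did not depart further on array 2. These correlations are over genes on shared arrays and are given as a description. Calls and family medians are therefore given with and without array 2.

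HY5 is a bZIP transcription factor that accumulates in light and promotes photomorphogenesis, including the synthesis of flavonoid pigments, and it is also known to act in cold acclimation. Cytochrome P450s are haem monooxygenases that insert oxygen into hormones, phenolics, terpenoids and amino acid derivatives. The CYP71B subfamily includes PAD3 (CYP71B15), the last enzyme of camalexin synthesis. Beta-glucosidases of the BGLU family remove glucose from stored conjugates of defence compounds, flavonols, monolignols and abscisic acid. SCPL (serine carboxypeptidase-like) proteins resemble peptidases, but some members are acyltransferases that build sinapate esters from glucose esters.

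In hy5-1, 3 of 12 P450 genes and 3 of 11 BGLU genes fell, 0 of 13 SCPL genes passed, and no gene of the 3 families rose past the threshold, a limma adjusted p under 0.05 over all loci. At an unadjusted p under 0.05 the 36 genes held 11, of which 8 were lower and 3 higher, beside 36.3% of all loci, and an unmoderated statistic called 0 after adjustment. Of all 7234 loci, 17.2% passed, 7.88% as higher and 9.29% as lower. The 6 enzyme genes past the threshold are 16.7% of the 36, a share close to the 17.2% in either direction. All 6 were lower, and 9.29% of all loci were called lower. Read in the assumed base 2, their changes were moderate, from 1.32-fold to 1.81-fold lower, and none reached 2-fold. Each of the 6 calls was lost by limma without array 1 and without array 3, when 0 of all loci passed and 1613 and 1585 had an unadjusted p under 0.05.

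**Figure D1:**
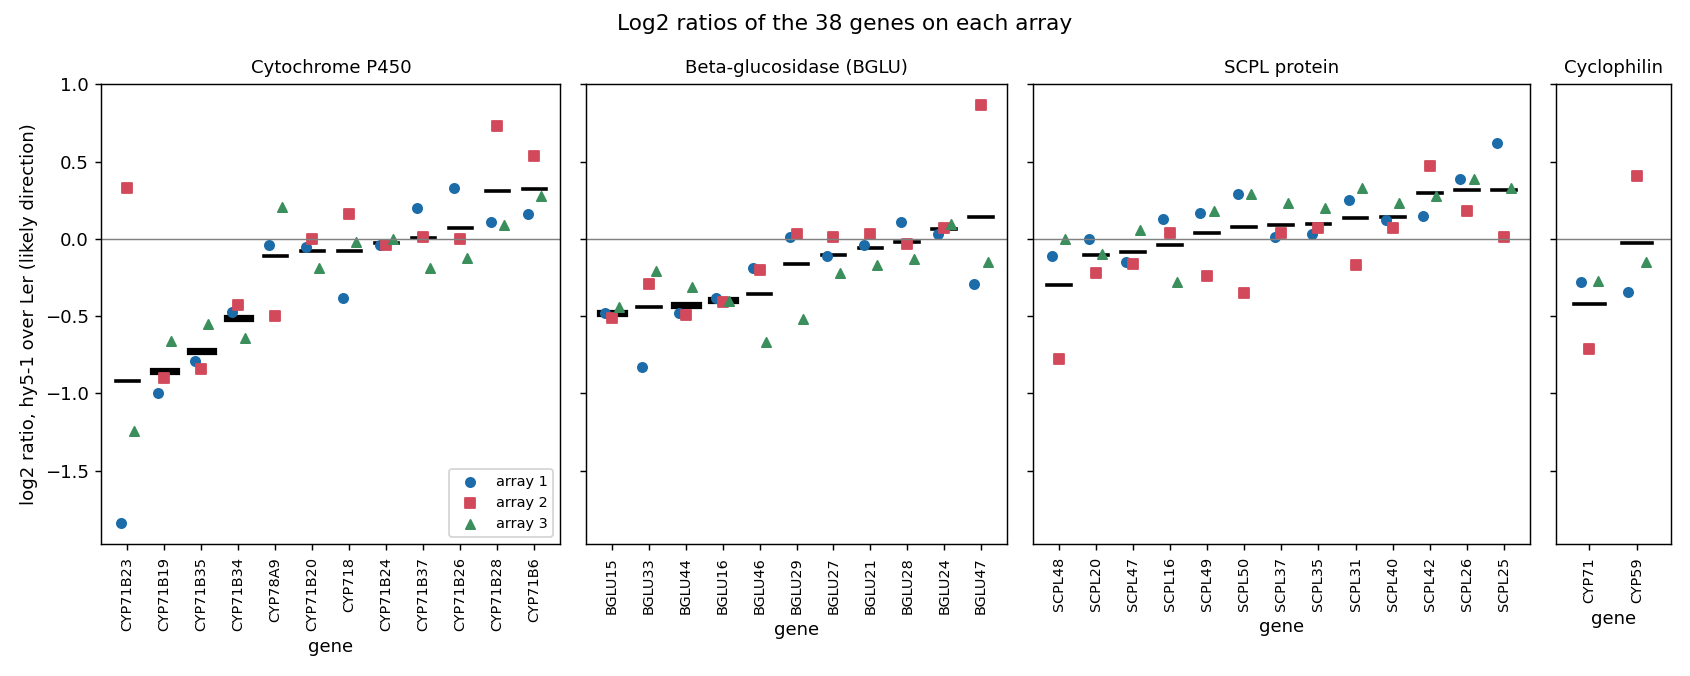
Log2 ratios of hy5-1 over Ler (vertical axis) for each of the 38 genes on arrays 1, 2 and 3 (points), in order of the mean within a family. Bars are means over 3 arrays, and thick bars mark the 6 genes past the threshold, 3 P450 and 3 BGLU genes, all below 0.

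All 3 P450 genes that fell belong to CYP71B, as do all measured P450 genes except CYP78A9 and CYP718. CYP71B19 (AT3G26170) had log2 ratios of -1.0, -0.90 and -0.66 on arrays 1, 2 and 3. It was below wild type on every array and 1.81-fold lower on average, at -0.85 ± 0.17 (SD, n = 3; limma adjusted p = 0.0190), with a 95% interval from -1.13 to -0.58. CYP71B35 (AT3G26310) had -0.79, -0.84 and -0.55. It was also lower on every array, 1.65-fold on average, at -0.73 ± 0.16 (SD, n = 3; limma adjusted p = 0.0216). CYP71B34 (AT3G26300) had -0.47, -0.43 and -0.64, again lower throughout. Its mean was -0.51 ± 0.11 (SD, n = 3), 1.43-fold lower, with a limma adjusted p of 0.0315. After arrays were brought to 1 common spread (median absolute deviation), CYP71B19 alone of the 6 genes passed (limma adjusted p = 0.0494), beside 5.41% of all loci. No locus had a smaller limma adjusted p in this setting, so the pass lay just under the threshold. The scaled means of CYP71B34 and CYP71B35 were -0.52 and -0.77, with limma adjusted p-values of 0.0538 and 0.0556. Without array 2 all 3 of these P450 genes passed, with means of -0.83 for CYP71B19, -0.67 for CYP71B35 and -0.56 for CYP71B34 (limma adjusted p = 0.0331, 0.0352 and 0.0406).

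CYP71B23 (AT3G26210) had the lowest mean of all 38 genes and did not pass. Its ratios were -1.84 on array 1, 0.33 on array 2 and -1.24 on array 3, a mean of -0.92 ± 1.12 (SD, n = 3; limma adjusted p = 0.186). Array 2 thus had the opposite sign from the other arrays. The gap of 1.87 between array 2 and the mean of arrays 1 and 3 was reached in size by 42 of 7234 loci, or 0.581%. With the value rows taken as the array grid, the 8 spots around its probe had medians of -0.035, -0.03 and 0.11 on arrays 1, 2 and 3. A fault of the single spot was not tested. Without array 2 its mean was -1.54 and it passed (limma adjusted p = 0.0307).

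Of the other P450 genes, CYP71B6 (AT2G24180), which oxidises indole-3-acetonitrile to indole-3-carboxylic acid, had the highest mean. Its ratios were 0.16, 0.54 and 0.28, above 0 on every array, with a mean of 0.33 ± 0.19 (SD, n = 3; limma adjusted p = 0.105). CYP71B28 (AT1G13090) had 0.11, 0.73 and 0.09, also above 0 throughout, and did not pass (limma adjusted p = 0.232). CYP78A9 (AT3G61880), of a subfamily that promotes organ and seed growth, had -0.04, -0.50 and 0.21 and so no common sign. CYP718 (AT2G42850), the sole measured gene of its family, had -0.38, 0.16 and -0.02, likewise of mixed sign. The remaining 4, CYP71B20, CYP71B24, CYP71B26 and CYP71B37, had means between -0.08 and 0.07.

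The 3 fallen P450 genes lie in a single run of CYP71B genes on chromosome 3. In TAIR10.1 gene order the run from CYP71B19 to CYP71B37 spans 18 protein-coding loci, 14 of them CYP71B genes, and 8 of these were measured. These 8 make up most of the 12 measured P450 genes. They included the 3 that fell, CYP71B23 with its split values, and 4 genes near 0. By limma 3 of the 8 passed, all lower, beside 9.29% of all loci called lower. Outside the run 0 of 4 P450 genes passed, beside 17.2% of all loci in either direction. With 4 genes, these counts do not show whether the fall was confined to the run. Of the 4, 1 had an unadjusted limma p under 0.05, beside 36.3% of all loci. Direct neighbours differed. The log2 ratio of CYP71B19 minus that of the adjacent CYP71B20 was -0.95, -0.90 and -0.47 on the 3 arrays, and CYP71B20 itself had -0.05, 0.00 and -0.19. For CYP71B34 minus its neighbour CYP71B26 it was -0.80, -0.43 and -0.52. These differences are between probes on the same array, had one sign on all 3 arrays, and were picked after their values were seen, so no test is given.

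CYP71B34 and CYP71B35 are adjacent and both fell, with the lower value in CYP71B35 on arrays 1 and 2 and in CYP71B34 on array 3. The 6 measured genes of other kinds within the run or among 10 loci on each side had means from 0.05 to 0.59. Of these 6, 3 rose and 0 fell by limma, beside 7.88% of all loci called higher and 9.29% called lower. CYP71B genes of this run are close relatives, and probe sequences were not used here, so signal from a related copy was not tested.

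**Figure D2:**
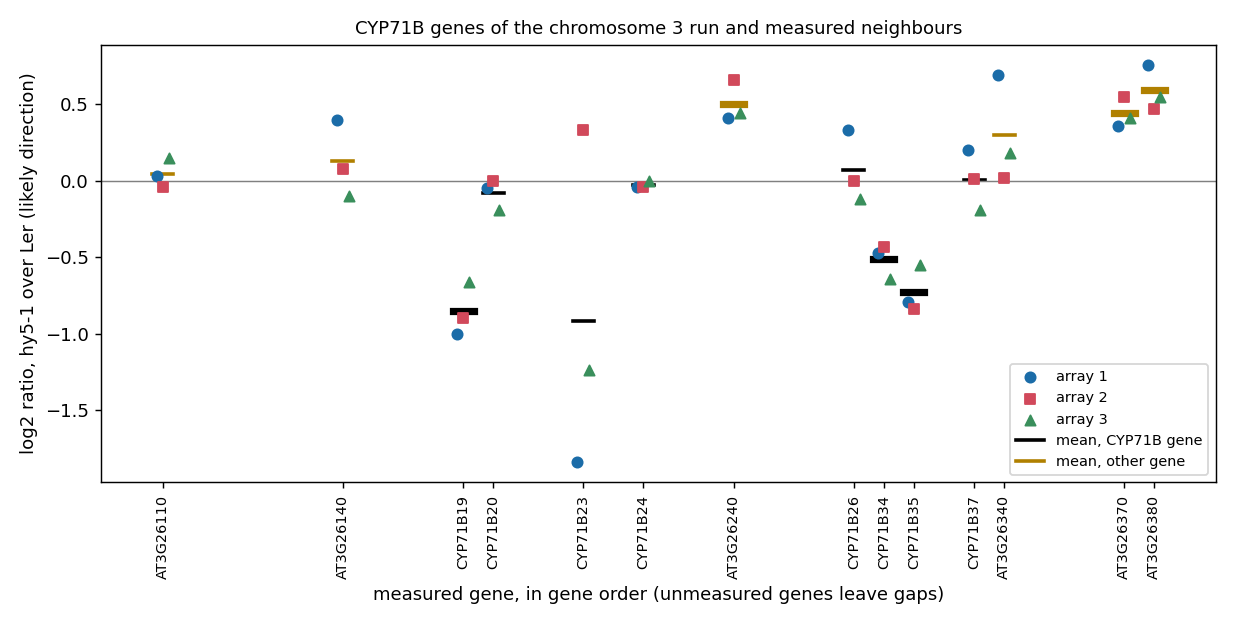
Log2 ratios of hy5-1 over Ler (vertical axis) for measured genes of the CYP71B run on chromosome 3 and of 10 loci on each side, in gene order (horizontal axis, gaps are unmeasured genes). Points are arrays, bars are means (black for CYP71B, ochre for other genes) and thick bars mark genes past the threshold. CYP71B19, CYP71B34 and CYP71B35 lie below 0 while CYP71B20, CYP71B24, CYP71B26 and CYP71B37 lie near 0.

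Among the beta-glucosidases, BGLU15 (AT2G44450), which hydrolyses flavonol glycosides, had ratios of -0.48, -0.51 and -0.44. These were close to each other, and the mean of -0.48 ± 0.04 (SD, n = 3) was 1.39-fold lower with a limma adjusted p of 0.0312. BGLU44 (AT3G18080), reported to act on mannose-containing oligosaccharides, had -0.48, -0.49 and -0.31. It was 1.34-fold lower, at -0.43 ± 0.10 (SD, n = 3; limma adjusted p = 0.0422). BGLU16 (AT3G60130) had -0.38, -0.41 and -0.40, the tightest of the 38 genes. It was 1.32-fold lower, at -0.40 ± 0.02 (SD, n = 3; limma adjusted p = 0.0416). Without array 2 BGLU15 alone of these passed, beside 19.1% of all loci, and BGLU44 and BGLU16 had limma adjusted p-values of 0.0714 and 0.0629. After that scaling of the arrays none of the 3 passed, although their means were -0.50 for BGLU15, -0.45 for BGLU44 and -0.41 for BGLU16. The limma adjusted p-values were then 0.0632, 0.0780 and 0.0728.

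The beta-glucosidases BGLU33 and BGLU46 were below 0 on every array and did not pass. BGLU33 (AT2G32860), known to release abscisic acid from its glucose ester, had -0.83, -0.29 and -0.21, with the low value on array 1, and a limma adjusted p of 0.102. BGLU46 (AT1G61820), which acts on monolignol glucosides of lignin synthesis, had -0.19, -0.20 and -0.67, with the low value on array 3, and a limma adjusted p of 0.128. The related BGLU47 (AT4G21760) had the highest mean of the family, at 0.14 ± 0.63 (SD, n = 3), from ratios of -0.29, 0.87 and -0.15. Array 2 again opposed the other arrays, and the gap of 1.09 was reached by 2.83% of all loci. BGLU21 (AT1G66270), a root enzyme that cleaves the coumarin glucoside scopolin, had -0.04, 0.03 and -0.17, and BGLU24 had 0.03, 0.07 and 0.10. BGLU27, BGLU28 and BGLU29 had means from -0.16 to -0.02 and did not pass.

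Measured beta-glucosidases that are neighbours also differed. BGLU15, BGLU28 and BGLU29 follow each other on chromosome 2, where BGLU28 had 0.11, -0.03 and -0.13 and BGLU29 had 0.01, 0.03 and -0.52. BGLU15 was the lowest of the 3 on arrays 1 and 2, while BGLU29 was the lowest on array 3. BGLU27 and BGLU16 are adjacent on chromosome 3, and BGLU16 was lower than BGLU27 on each array, with differences of -0.27, -0.42 and -0.18. Among 9 measured genes of other kinds within 10 loci on each side of the BGLU15 run, 2 rose and 1 fell by limma. Of all loci, 7.88% were called higher and 9.29% lower, and counts this small were not tested against those shares. The neighbour that fell, AT2G44410, had -0.44, -0.56 and -0.46, and AT2G44430 had -0.61, -0.48 and -0.26 without passing (limma adjusted p = 0.0508). Their means of -0.49 and -0.45 lay close to that of BGLU15. Around the BGLU16 run 1 of 5 such genes rose and 0 fell, beside the same shares of all loci, with means from -0.15 to 0.62.

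The SCPL genes had small ratios that leaned upward, and none passed by limma. SCPL26 (AT2G35780) came closest, with 0.39, 0.18 and 0.39, all above 0, a mean of 0.32 ± 0.12 (SD, n = 3; limma adjusted p = 0.0818). SCPL42 (AT5G42240) had 0.15, 0.47 and 0.28, also above 0 throughout, with a limma adjusted p of 0.110. SCPL25 (AT3G02110) had 0.62, 0.01 and 0.33, a wider spread, with a limma adjusted p of 0.177. SCPL48 (AT3G45010) had the lowest mean of the family, from -0.11, -0.78 and 0.00, and the low value came from array 2. SCPL49 (AT3G10410) is annotated as carboxypeptidase Y, the vacuolar peptidase known from yeast, and had 0.17, -0.24 and 0.18.

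SCPL50 (AT1G15000) had 0.29, -0.35 and 0.29, and SCPL31 (AT1G11080) had 0.25, -0.17 and 0.33, so that array 2 was again the odd array. Over the 13 SCPL genes the gap between array 2 and the mean of arrays 1 and 3 had a median of -0.17, whereas it was 0.06 for P450 genes, 0.14 for BGLU genes and -0.01 for all loci. SCPL20 had ratios of 0.00, -0.22 and -0.10, and SCPL47 had -0.15, -0.16 and 0.06. SCPL16 had 0.13, 0.04 and -0.28, and so the widest range of these last 3. SCPL35, SCPL37 and SCPL40 were above 0 on every array, with means of 0.10, 0.09 and 0.14. Without array 2 again 0 SCPL genes passed by limma, with 4 at an unadjusted p under 0.05, and SCPL26 had the smallest limma adjusted p, 0.0628.

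**Figure D3:**
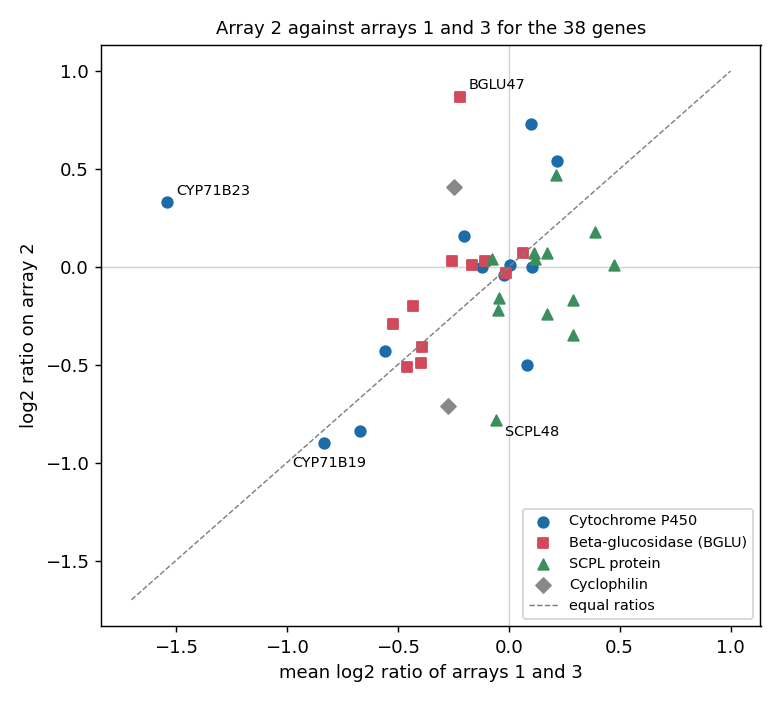
Log2 ratio on array 2 (vertical axis) against the mean log2 ratio of arrays 1 and 3 (horizontal axis) for the 38 genes, with the dashed line marking equal ratios. CYP71B23 and BGLU47 lie above the line by 1.87 and 1.09, and SCPL48 lies below it, with a gap of -0.725.

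Set side by side, the 3 families had different medians. The median of the gene means was -0.16 for BGLU, -0.08 for P450 and 0.09 for SCPL genes, and 0 for all loci. On arrays 1, 2 and 3 the BGLU median was -0.19, -0.03 and -0.22, the P450 median -0.05, 0.00 and -0.16, and the SCPL median 0.13, 0.01 and 0.23. The order BGLU, P450, SCPL held on each array. On array 2 the families were almost level, where BGLU minus SCPL was -0.04 and P450 minus SCPL was -0.01. Array 2 also had the smallest median absolute deviation over all features. The P450 median pools 8 CYP71B genes of the chromosome 3 run with 4 others, a split made after values were seen. On arrays 1, 2 and 3 the run had medians of -0.26, -0.02 and -0.37, and the others 0.035, 0.35 and 0.15. With the run alone as P450 the order changed on arrays 1 and 3, and with the others alone on array 2. Without array 2 the medians of the gene means were -0.255 for BGLU, -0.07 for P450 and 0.175 for SCPL genes. The mean difference between BGLU and SCPL medians was -0.27 ± 0.21 (SD, n = 3 arrays), and between BGLU and P450 medians -0.08 ± 0.06. No test of these differences was made, because the genes were chosen with results known, and with 3 arrays an exact two-sided sign-flip test cannot go below p = 0.25.

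Gene by gene, signs were also counted, and these small counts were not tested. Below 0 on all 3 arrays were 5 of 11 BGLU genes, 3 of 12 P450 genes and 0 of 13 SCPL genes, beside 27.5% of all loci. The P450 share of 25% was close to that of all loci. Above 0 on all 3 arrays were 1 BGLU gene, 2 P450 genes and 6 SCPL genes, beside 27% of all loci. The P450 genes were the most spread, with quartiles of the means at -0.57 and 0.02, against -0.41 and -0.04 for BGLU and -0.04 and 0.14 for SCPL. For all loci the quartiles were -0.22 and 0.22, and the 3 family medians lay between them.

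**Figure D4:**
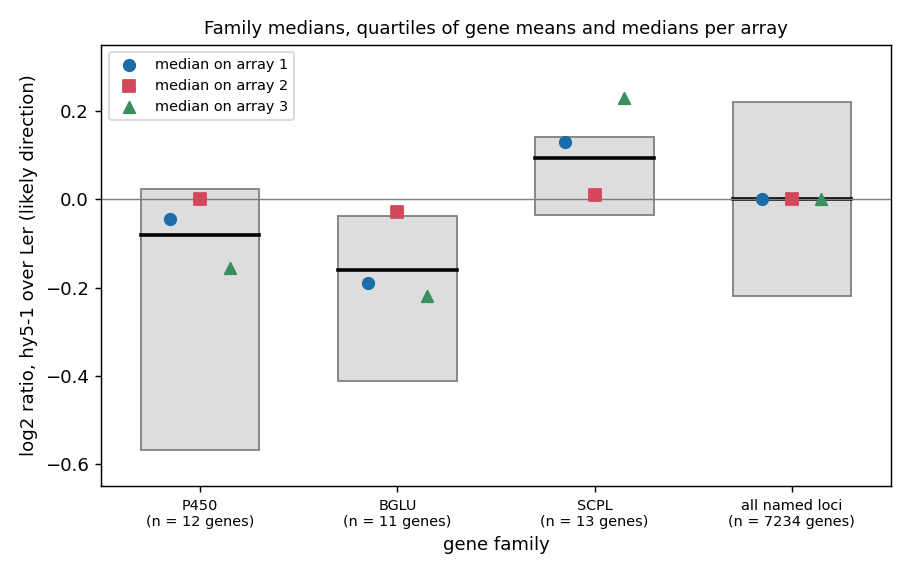
Log2 ratios of hy5-1 over Ler (vertical axis) by family: black lines are medians of the gene means, grey boxes span their quartiles, and points are medians on each array. BGLU lies lowest and SCPL highest on every array, and the 3 families come closest to each other on array 2.

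On the same assumed grid, the spots around each of the 6 fallen genes were close to 0, with medians over 8 spots from -0.16 to 0.03 on the 3 arrays. The lowest of these, -0.16, was beside BGLU15 on array 2, where the gene itself had -0.51.

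The cyclophilins, peptidyl-prolyl isomerases unrelated to P450s, did not pass. CYP71 (AT3G44600), a nuclear cyclophilin that binds histone H3 and acts on chromatin, had -0.28, -0.71 and -0.27, below 0 on every array, with a limma adjusted p of 0.0789. CYP59 (AT1G53720), a nuclear cyclophilin with an RNA recognition motif, had -0.34, 0.41 and -0.15 and no common sign.

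Partner genes of the pathways in which these families work were sparsely measured, with 17 of 204 listed genes on 6 of 17 lists. Among them 3 fell and 0 rose by limma. They are 17.6% of the 17, beside 9.29% of all loci lower and 17.2% past the threshold in either direction. These 3 passed without array 2 and did not pass without array 1 or without array 3. With scaled arrays they had means of -0.67 for GTR2, -0.83 for REF1 and -0.58 for FAMA and limma adjusted p-values of 0.0505, 0.0772 and 0.0503. In the glucosinolate list 1 of 6 measured genes fell, the transporter GTR2 (AT5G62680), with -0.85, -0.62 and -0.49 and a mean of -0.65 ± 0.18 (SD, n = 3; limma adjusted p = 0.0263). Its homologue GTR1 had -0.45, -0.06 and 0.04 and did not pass. GSTU20, a glutathione transferase, had 0.24, -0.01 and 0.05. In the remaining 3 genes array 2 was far below the other arrays. BCAT4, the transaminase that opens methionine chain elongation, had 0.58, -1.29 and 0.53. UGT74C1 (AT2G31790), a glucosyltransferase of the aliphatic branch, had 0.29, -0.89 and 0.52, and the glucosyltransferase UGT74B1 had -0.42, -1.27 and 0.05. These departures of array 2 ran opposite to those of CYP71B23 and BGLU47. The list median was -0.11 over 6 genes.

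In the list of sinapate esters and phenylpropanoids 1 of 3 measured genes fell. It was REF1 (ALDH2C4, AT3G24503), the aldehyde dehydrogenase that makes sinapate and ferulate, with -0.79, -1.04 and -0.46 and a mean of -0.76 ± 0.29 (SD, n = 3; limma adjusted p = 0.0296). It was lower on every array. Its sinapate product is the substrate of SCPL acyltransferases after glucosylation, and the acyltransferase genes SNG1 and SNG2 were not analysed here. UGT84A3, a sinapate glucosyltransferase, had -0.29, 0.59 and -0.39. HCT, an acyltransferase of the phenylpropanoid pathway, was above 0 on every array, at 0.26, 0.25 and 0.53, and did not pass (limma adjusted p = 0.0797).

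Proteins of the ER body, a compartment that stores beta-glucosidases, had 3 measured genes of 11 listed. None passed by limma, at 1 with an unadjusted p under 0.05. NAI2, needed to form ER bodies, had -0.42, 0.10 and -0.31, and the lipase-like GLL23 (AT1G54010) had -0.33, -0.26 and -0.41, below 0 throughout (limma adjusted p = 0.0652). Gibberellin genes had 0 of 3 past the threshold by limma, with the receptor gene GID1B at 0.42, 0.64 and 0.29 (limma adjusted p = 0.0508). Of the markers of other cell types, the root gene EXPA18 had 0.02, 0.04 and 0.13. The guard cell regulator FAMA (AT3G24140) fell, with -0.77, -0.47 and -0.49 and a mean of -0.58 ± 0.17 (SD, n = 3; limma adjusted p = 0.0310). It was 1 of 5 listed guard cell and trichome genes to be measured, and the part of these cells in the values of the 6 enzyme genes was not tested. No gene was measured from the lists of flower, senescent leaf and green leaf markers.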

How the data were processed

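The deposited log2 ratios were used as the authors gave them, for 45220 features on 3 arrays. The sources used here do not give the log base, the numerator, the normalisation or the software. Values reach 5.09, which does not settle the base, and base 2 was assumed. Array medians were 0 to 0.01, so values appear centred. Signal over background is unknown, and the number of arrays limits the precision.

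Features were named through the platform annotation (7440 features) and RefSeq symbols of TAIR10.1, matched by gene ID for every feature. The value rows follow another order than the probe numbers. An order found in earlier work from these values was used, and every gene name rests on it. For 7 genes spotted 10 times or more, the variance within a gene was 0.0416 of that of all named features under it, against 0.789 with numbers as given. Because the order came from these same values, this comparison is not independent of it.

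Probes were averaged per locus. Means were tested against 0 with limma 3.58.1 in R 4.3.3 (lmFit, eBayes; 2 residual and 3.04 prior degrees of freedom), with Benjamini-Hochberg adjustment over 7234 loci at 0.05. The fit was also run on simulated data with independent normal noise for each locus. These held no dye effect and no deviating array, so the run does not cover those limits. P450s and cyclophilins were separated by annotation. CYP718, with no subfamily letter, was counted as a P450, and without it 3 of 11 fell. Named genes were members past the threshold, the 2 highest and lowest means per family, the largest departures of array 2, members with known roles, and list genes past the threshold. Other genes were added after their values were seen, as were the counts inside and outside the CYP71B run, the neighbouring loci and the surrounding spots. Members and lists were chosen with earlier results of these data known. Of 17 lists, 11 had no named feature: P450 genes under other symbols, their electron donors, jasmonate, abscisic acid, brassinosteroid, cutin and wax, terpenes, myrosinases, and flower, senescent leaf and green leaf markers.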

Additional observations from a re-analysis of the deposited data

How the results depend on the processing

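Past the threshold were 1242 loci in all, 3 P450, 3 BGLU and 0 SCPL genes. Each count stayed within 1.5 times, and all 6 calls were kept, after quantile normalization, with centring on medians, with moderation made robust, with probes fitted singly and when all features were fitted. Scaling to equal median absolute deviations gave 391, 1, 0 and 0. Without moderation the counts were 3 loci and no gene of the families (0, 0 and 0). A minimum of 2-fold left 151 loci and again 0, 0 and 0, and row numbers taken as given left 491 loci and 0, 0 and 0. Dropping the loci with the highest SD gave 2156, 4, 4 and 1, where the added calls were CYP71B6 and SCPL26, both higher in hy5-1, and BGLU33, lower. The cyclophilin CYP71, outside these family counts, was then also called lower, at -0.42 (limma adjusted p = 0.0266). Without 1 array, limma called 0 to 1380 loci, 0 to 4 P450, 0 to 1 BGLU and 0 SCPL genes. All counts were 0 without replicate 1 and without replicate 3, where 7 and 6 of the 38 genes had an unadjusted p under 0.05. Outside the chromosome 3 run, a split added after the data had been seen, 0 of 4 P450 genes passed, beside 17.2% of all loci. The BGLU median of -0.16 became 0.013 with row numbers as given. It lay between -0.255 and -0.05 over the fits with 1 array removed, nearest 0 without replicate 3. The SCPL median of 0.093 ran from 0.04 without replicate 3 to 0.175 without replicate 2. The P450 median of -0.08 ran from -0.0925 to -0.07 with 1 array removed and was -0.0033 with row numbers as given. With row numbers as given, other value rows are read under the gene names. Those counts and medians then describe other spots if the order used here holds. In that setting the means under BGLU15 and BGLU44 were 0.11 and 0.12. Apart from this reading of other rows, the cause of these shifts was not tested. The fits with 1 array removed held equal numbers of arrays, and 0, 1380 and 0 loci passed without replicates 1, 2 and 3. Dim spots could not be filtered, since no intensities were used here. No paired analysis was possible because the design has 1 group of ratios, each of which sets both genotypes against each other.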
